A study of Mus musculus with 18 samples.

Results

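The transcripts of the interferon regulatory factors *Irf1*, *Irf2*, *Irf3*, *Irf4*, *Irf5*, *Irf7*, *Irf8* and *Irf9* were followed across stimulated and unstimulated mouse eosinophils. They were taken by gene symbol, and all 8 were found among the 55029 genes listed for 12 of the libraries and the 54232 genes listed for the other 6. RNA of eosinophils was sequenced in 18 libraries, 3 in each of 6 groups. The cells came from the peritoneal cavity of C57BL/6 mice of the NJ.1638 line, which carry an *Il5* transgene expressed in T cells, and T and B cells were depleted with anti-Thy1.2 and anti-B220 beads. The groups were unstimulated libraries a to c and d to f, and cells given heat-inactivated *E. coli*, IFN-γ at 50 ng/ml, both together, or IL-4 at 100 ng/ml, each for 18 hours. Neither the labels nor the study's text give a time in culture for the unstimulated cells. Whether they differ from the stimulated cells in that time too is not known. Every group, the unstimulated ones included, therefore carries the transgene that drives eosinophil expansion, and no group comes from mice without it. The labels give no age. The study speaks of biological replicates, but neither its text nor the labels say whether libraries of a group are separate animals or separate cultures, so that what the spread between libraries, which the p-values below measure, covers is not known.

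Interferon regulatory factors are transcription factors that share a DNA-binding domain and recognise GAAA-type elements in the promoters of interferon-responsive genes. IRF3, IRF5 and IRF7 are present in the resting cell and are activated by kinases downstream of pattern recognition receptors, IRF9 forms part of a complex downstream of the type I interferon receptor, and *Irf1* is induced downstream of the IFN-γ receptor. IRF2 binds many of the sites of IRF1 and can act against it, IRF8 is best known for its part in the monocyte and dendritic cell lineages, and IRF4 for B cells, T helper cells and macrophages activated by IL-4.

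The unstimulated libraries a to c and the *E. coli* and IFN-γ libraries, called set 1 here, hold 1523808 to 2734041 counts on genes per library. The unstimulated libraries d to f and the IL-4 libraries, called set 2, hold 3625036 to 6482289. Levels are given as normalized CPM, gene counts scaled to a common total per library, as mean ± SD of 3 libraries, and 3 counts, the upper limit that a count of 0 allows, correspond to 1.10 to 1.97 CPM in set 1 and 0.463 to 0.828 CPM in set 2. These limits cover counting error only. The highest count of any gene in the set 1 libraries lies between 4089 and 4095, just under 4096, the number of sequences of 6 bases, which is the length of the molecular identifier in the CEL-Seq2 protocol. In set 2 the highest counts are 87377 to 191131, so that levels in the 2 sets are not on 1 scale and each stimulus is set against the 3 unstimulated libraries of its own set. The sets were told apart by their gene lists, of 55029 and 54232 genes, and the labels do not say which libraries were sequenced together. Within set 2, unstimulated library e stood apart from d and f, with a chi-square per gene of 23.7 and 22.0 against 7.86 between d and f. In set 1, *E. coli* library 3 stood apart from libraries 1 and 2 (3.76 and 4.6 against 1.64), library 3 with both stimuli from libraries 1 and 2 of its group (6.04 and 5.02 against 2.66) and unstimulated library b from a and c (4.58 and 4.5 against 2.49). The labelled cell type was checked against marker genes. Of 11 eosinophil markers 10 were above 3 counts in at least 1 library of set 1 and 11 in set 2. On the mean over each set they were led by *Ccr3* at 1469.9 CPM in set 1 and *Alox15* at 2405 CPM in set 2. By group, *Alox15* was above *Ccr3* in libraries a to c (1619.7 and 1431 CPM) and with IFN-γ (1629.9 and 1605 CPM). The counts of *Ccr3* in set 1, 2258 to 3576, lie not far under 4096. Natural killer cell markers were near 0, with sums of at most 0.951 CPM, and 2 of 9 T cell markers passed the same limit in each set. All 12 macrophage or monocyte markers passed it, led by *Ly6c2* at 2007 CPM in set 1, where its 3359 to 4083 counts lie close under 4096, so that sums of these markers are given without it in set 1, and at 23296 CPM in set 2, and so did all 8 B cell markers, with sums of 42.8 to 222 CPM in set 1 and 24.7 to 74.7 CPM in set 2. In bulk samples such as these, fewer cells of a type and less RNA per cell cannot be told apart.

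In unstimulated libraries a to c, *Irf1* stood at 312 ± 19.3 CPM, *Irf2* at 288 ± 8.30, *Irf3* at 70.4 ± 5.32, *Irf5* at 138 ± 13.3, *Irf7* at 1346 ± 221, *Irf8* at 16.9 ± 3.09 and *Irf9* at 247 ± 4.10. *Irf4* was at 1.02 ± 0.911 CPM there, around the limit of 3 counts, and was too low to be tested in set 1. In libraries d to f, *Irf1* was at 253 ± 24.3 CPM, *Irf2* at 306 ± 42.3, *Irf3* at 48.7 ± 5.02, *Irf4* at 0.909 ± 0.523, *Irf5* at 91.0 ± 8.01, *Irf7* at 587 ± 96.4, *Irf8* at 44.3 ± 10.6 and *Irf9* at 225 ± 6.09. Thus 7 of the 8 members passed the filter on low counts in set 1 and 8 of 8 in set 2. On GRCm38 the genes with the clearest responses lie on chromosome 11 (*Irf1*, positions 53770014 to 53778374, forward strand), chromosome 8 (*Irf2*, 46739732 to 46847458, and *Irf8*, 120736358 to 120756694, both forward), chromosome 6 (*Irf5*, 29526625 to 29541871, forward) and chromosome 13 (*Irf4*, 30749226 to 30766976, forward).

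**Figure D1:**
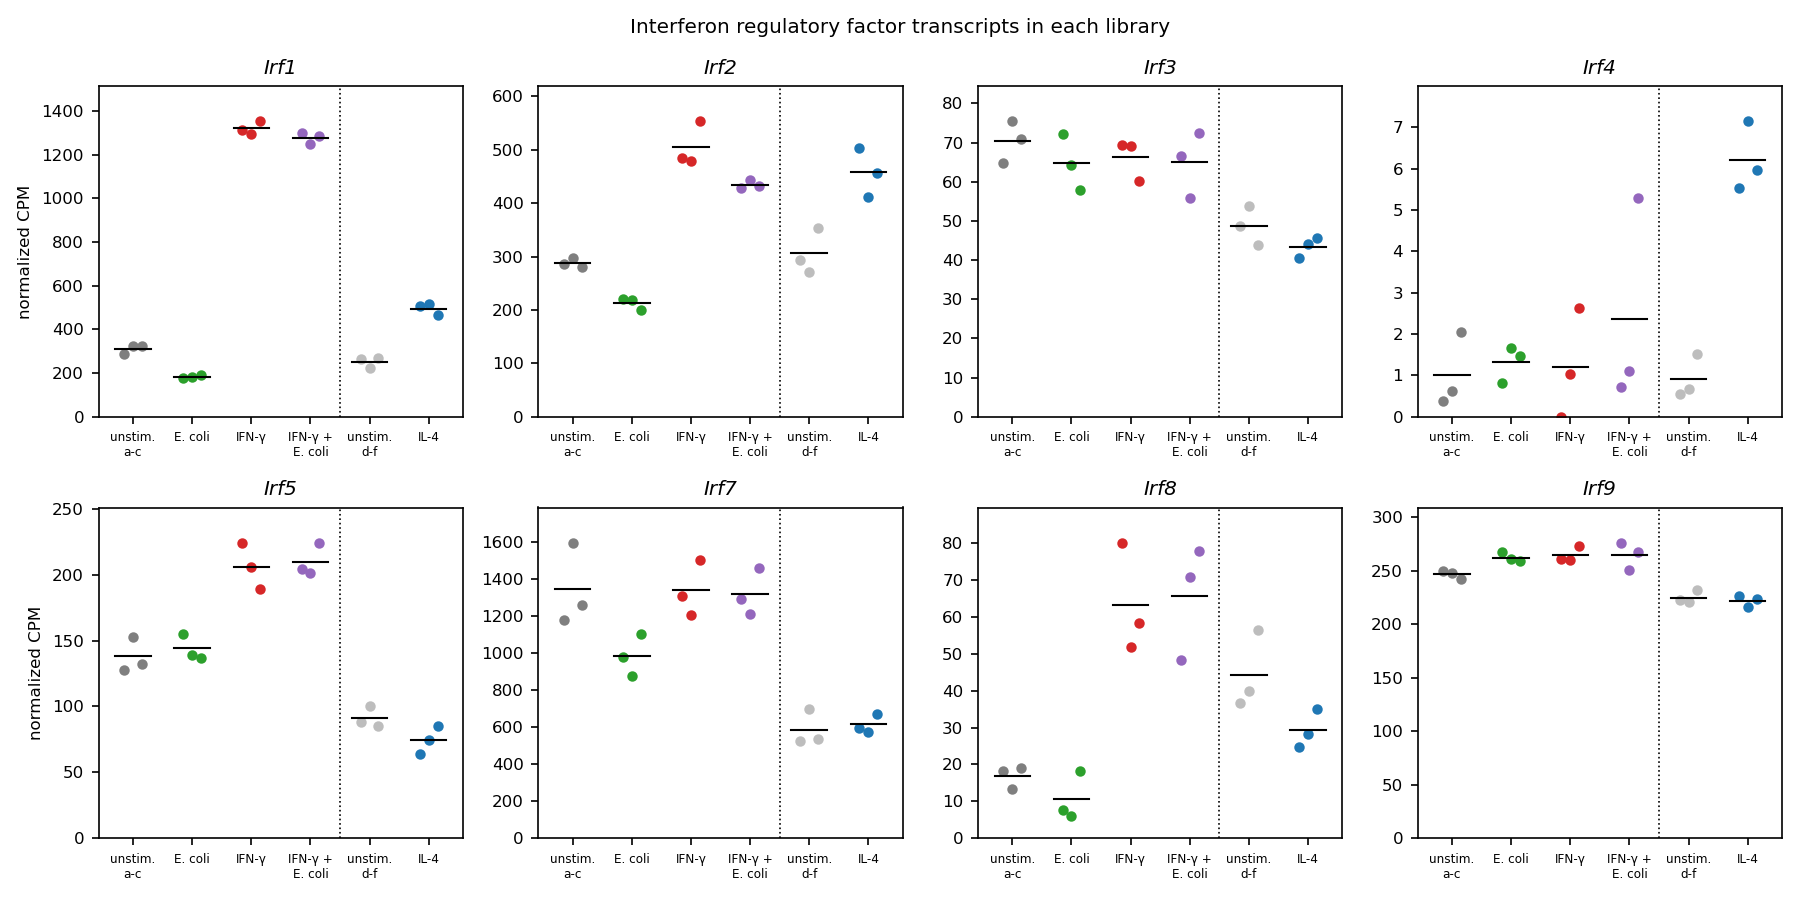
Normalized CPM (vertical axis, linear, from 0) of the 8 interferon regulatory factors in each library, by group; points are libraries, black lines are group means and the dotted line divides the 2 sets, whose levels are not on 1 scale. *Irf1* lies between 1250.3 and 1352 CPM in the 6 libraries that received IFN-γ and between 178 and 324 CPM in the other 6 libraries of set 1.

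IFN-γ, the cytokine used to model a type 1 environment, raised 4 of the 7 members tested: *Irf1*, *Irf2*, *Irf5* and *Irf8*. *Irf1*, an activator of many interferon-responsive genes, was at 289.5, 322 and 324 CPM in unstimulated libraries a, b and c and at 1315, 1293 and 1352 CPM in the IFN-γ libraries. The groups were far apart and the 3 stimulated libraries lay close together. The rise was 4.24-fold (log2 fold change 2.08 ± 0.102 SE, adjusted p = 2.47e-11, edgeR). *Irf8* was at 18.3, 13.3 and 19.0 CPM without stimulus and at 80.0, 51.8 and 58.2 CPM with IFN-γ. No library overlapped, and stimulated library 1 was the highest. The rise of *Irf8* was 3.67-fold (log2 fold change 1.88 ± 0.273 SE, adjusted p = 3.32e-05). *Irf2*, the competitor of IRF1, went from 287, 297 and 281 CPM to 484, 479.8 and 553 CPM, again without overlap, a log2 fold change of 0.81 ± 0.0995 (adjusted p = 4.6e-06). *Irf5*, the factor linked to inflammatory cytokine genes, went from 128, 153 and 132 CPM to 224, 206 and 189 CPM, without overlap, a log2 fold change of 0.59 ± 0.112 (adjusted p = 0.00047). Among all 9883 genes tested, 15.6% were called higher and 16.0% lower, so that the share of members called higher lies above the share of all genes and 0 of 7 were called lower; DESeq2 gave the same counts of 4 and 0, and at an unadjusted p under 0.05 the number changed was also 4. The 3 others showed no call: *Irf7* was at 1341 ± 149 CPM, *Irf3* at 66.3 ± 5.28 CPM and *Irf9* at 265 ± 6.98 CPM, and for *Irf9* the groups did not overlap although the log2 fold change was 0.10 ± 0.0945 (adjusted p = 0.452).

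Marker sums of other cells also differed between these libraries. The B cell sum was 222, 204 and 119 CPM in libraries a to c and 103, 64.6 and 60.8 CPM with IFN-γ, and so moved the opposite way to *Irf8*. The macrophage or monocyte sum without *Ly6c2* had a mean of 1195 CPM without stimulus and 1638 CPM with IFN-γ, with none of the 12 genes at 0 in all libraries. The neutrophil sum was 42.5, 35.5 and 45.0 CPM and then 71.1, 67.7 and 79.1 CPM, with 5 of 8 markers above 3 counts. *S100a8* led on the mean over set 1, but not in libraries a to c, its means being 8.58 and 39.2 CPM. Without *S100a8* the means of the sum were 32.4 and 33.4 CPM. Within that remainder *Ly6g* had means of 4.12 and 21.7 CPM and *Cxcr2* of 26.2 and 7.78 CPM, each without overlap, so that the neutrophil markers did not move as 1. The mast cell sum was 10.1, 8.87 and 7.43 CPM and then 30.2, 14.4 and 13.1 CPM, with 4 of 6 above it and *Tpsb2* leading. Macrophage or monocyte and mast cell sums thus had higher means with IFN-γ, as had the 4 members called. The part of these markers in the result was not tested. Taking all 6 unstimulated libraries as 1 group, which joins the 2 sets, ended the call of *Irf8* (log2 fold change 0.75, adjusted p = 0.245, within a range of 5.18e-20 to 0.245 over the alternatives).

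*E. coli*, a stimulus of innate receptors, lowered 3 of the 7 members tested, *Irf1*, *Irf2* and *Irf7*, and raised 0 in edgeR, where 16.7% of all genes were called lower and 13.5% higher, so that the share of members called lower lies above that of all genes; DESeq2 also gave 3 lower and 0 higher, and 4 members were at an unadjusted p under 0.05. *Irf1* was at 178, 183 and 191 CPM in the *E. coli* libraries, below each of libraries a to c, and was 1.70-fold lower (log2 fold change -0.76 ± 0.103 SE, adjusted p = 1.52e-05). *Irf2* was at 220.3, 218 and 200.0 CPM, also below every unstimulated library, with a log2 fold change of -0.44 ± 0.101 (adjusted p = 0.00267). *Irf7*, the factor that amplifies type I interferon production, was at 983, 876 and 1106 CPM against 1179.7, 1597 and 1260.0 CPM. The groups did not overlap, but unstimulated library b, the one with the fewest counts of the 3, was well above the others. With counts corrected for the ceiling, libraries a to c were at 1711, 1911 and 1752 CPM and the *E. coli* libraries at 1123, 1050 and 1222 CPM, so that b lay nearer to a and c. The log2 fold change of *Irf7* was -0.44 ± 0.136 (adjusted p = 0.0179). The call of *Irf7* was lost without unstimulated library b (-0.28, adjusted p = 0.112), without *E. coli* library 1 (-0.43, 0.0619) or 2 (-0.36, 0.103) and with all 6 unstimulated libraries as 1 group (-0.08, 0.814), while correcting its counts for the ceiling near 4096, which took 3166 counts in library a to 6073, gave -0.66 (0.000262), the range over the alternatives being 0.000262 to 0.814. Marker sums also differed between these groups. With *E. coli* the B cell sum was 42.8, 47.1 and 77.5 CPM, against 222, 204 and 119 CPM in libraries a to c. The plasma cell sum was 3.67, 3.68 and 7.90 CPM against a mean of 13.6 ± 2.42 CPM, with 4 of 5 plasma cell markers above 3 counts in set 1. *Mzb1* led on the mean over set 1, while *Sdc1* was above it in libraries a to c (5.05 and 4.70 CPM) and with *E. coli* (2.42 and 2.06 CPM). The neutrophil sum was 159, 129 and 213 CPM against 42.5, 35.5 and 45.0 CPM, and so moved the opposite way to the 3 members (without *S100a8*, means of 94.9 and 32.4 CPM, of which *Cxcr2* made up 88.5 and 26.2 CPM, while *Ly6g* was at 3.41 and 4.12 CPM). The means of the macrophage or monocyte sum without *Ly6c2* were 853 and 1195 CPM. The eosinophil sum was 3903, 3458 and 3851 CPM with *E. coli*, against 4062, 5390.3 and 4230.1 CPM in libraries a to c, and so was lower, as were the 3 members. Without *Ccr3* the means were 2428 and 3130.1 CPM. *Alox15* (means 1256 and 1619.7 CPM), *Siglecf* (636 and 1020.4) and *Il5ra* (70.7 and 179) were lower without overlap. *Gata1* (348 and 237) and *Ear6* (87.5 and 36.6) were higher without overlap, so that the eosinophil markers did not move as 1. The part of these sums in the lower levels of *Irf1*, *Irf2* and *Irf7* was not tested.

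*Irf8* was at 7.75, 6.02 and 18.3 CPM with *E. coli*, against 18.3, 13.3 and 19.0 CPM without. Libraries 1 and 2 lay below every unstimulated library and library 3 among them, and the log2 fold change of -0.76 ± 0.337 was not called (adjusted p = 0.096). Without *E. coli* library 3 it was -1.32 (adjusted p = 0.004), with no filter on low counts -0.72 (0.0255) and with all unstimulated libraries as 1 group -1.86 (0.0216), the range over the alternatives being 0.004 to 0.403. Library 3 also had the highest sums for B cell markers (77.5 CPM, against 42.8 and 47.1 in libraries 1 and 2), for mast cell markers (34.6 CPM, against 9.79 and 6.69) and for neutrophil markers (213 CPM, against 159 and 129). Above 3 counts in at least 1 library of set 1 were 8 of 8 B cell, 4 of 6 mast cell and 5 of 8 neutrophil markers. On the mean over set 1 they were led by *Ighm*, *Tpsb2* and *S100a8*, and no gene of these lists was at 0 throughout set 1. The part of these sums in the level of *Irf8* was not tested. *Irf3*, *Irf5* and *Irf9*, at 64.7 ± 7.23, 144 ± 10.1 and 262 ± 4.64 CPM, were not called.

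IFN-γ together with *E. coli*, the combined type 1 setting of the study, raised the same 4 members, against the same unstimulated libraries. *Irf1* was at 1299, 1250.3 and 1284 CPM, far above libraries a to c, with a log2 fold change of 2.04 ± 0.102 (adjusted p = 1.26e-11). *Irf8* was at 48.2, 70.7 and 77.8 CPM, again above every unstimulated library, with a log2 fold change of 1.94 ± 0.275 (adjusted p = 1.17e-05). *Irf2* at 428, 443 and 433 CPM (log2 fold change 0.59 ± 0.0999, adjusted p = 7.69e-05) and *Irf5* at 204, 201 and 224 CPM (0.61 ± 0.112, adjusted p = 0.000178) also lay above every unstimulated library. Of all genes 23.9% were called higher and 25.2% lower, against 4 and 0 of 7 members in edgeR and in DESeq2, with 4 at an unadjusted p under 0.05, so that the share of members called higher lies above that of all genes. The macrophage or monocyte sum without *Ly6c2* had a mean of 1591 CPM here, and the mast cell sum was 35.8, 70.7 and 66.6 CPM, against 10.1, 8.87 and 7.43 CPM in libraries a to c, and the neutrophil sum 71.6, 83.3 and 111 CPM, but without *S100a8* its mean was 33.4 CPM, against 32.4 CPM in libraries a to c, with *Ly6g* at means of 13.9 against 4.12 CPM and *Cxcr2* at 16.1 against 26.2 CPM. The B cell sum was 128, 138 and 134 CPM. The eosinophil sum was 3693, 3276 and 3512 CPM, against 4062, 5390.3 and 4230.1 CPM in libraries a to c. Among its genes *Alox15*, *Siglecf*, *Il5ra* and *Prg2* were lower without overlap, and *Gata1* was higher without overlap (means 396 and 237 CPM). The part of these markers in these results was not tested. With all 6 unstimulated libraries as 1 group *Irf2* (0.39, adjusted p = 0.0644, range 1.72e-08 to 0.0644) and *Irf8* (0.83, adjusted p = 0.158, range 8.69e-21 to 0.158) lost their calls, and with counts corrected for the ceiling *Irf7* was called lower (-0.33, adjusted p = 0.0245, range 0.0245 to 0.995).

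Adding *E. coli* to IFN-γ changed 0 of 7 members in edgeR and in DESeq2, where 6.25% of all genes were called higher and 5.98% lower. One member, *Irf2*, had an unadjusted p under 0.05: its 3 libraries with both stimuli lay below the 3 with IFN-γ alone, but the log2 fold change of -0.22 ± 0.0988 did not pass (adjusted p = 0.172). *Irf1* differed by -0.05 ± 0.0974 and *Irf8* by 0.06 ± 0.241, and for both the libraries overlapped. Adding IFN-γ to *E. coli* raised 5 of 7 members and lowered 0 in edgeR and in DESeq2, with 5 at an unadjusted p under 0.05, where 17.5% of all genes were called higher and 15.3% lower, so that the share of members called higher is again the larger. *Irf1* was 6.95-fold higher (log2 fold change 2.80 ± 0.106, adjusted p = 8.87e-13) and *Irf8* 6.49-fold higher (log2 SE 0.294, adjusted p = 8.34e-07). Corrected for the ceiling, *Irf1* was at 142.6, 147.2 and 152.7 CPM with *E. coli* alone, farther below the libraries with both stimuli. *Irf2* rose by 1.03 ± 0.101 on the log2 scale (adjusted p = 2.06e-07), *Irf5* by 0.54 ± 0.111 (adjusted p = 0.000934) and *Irf7* by 0.42 ± 0.136 (adjusted p = 0.0232). The call of *Irf7* was lost without *E. coli* library 1 (0.41, adjusted p = 0.0724), *E. coli* library 2 (0.34, 0.117) or library 3 with both stimuli (0.34, 0.098), within a range of 0.000221 to 0.117. Between *E. coli* alone and both stimuli the mean sums also differed, at 853 and 1591 CPM for macrophage or monocyte markers without *Ly6c2*, 55.8 and 133 CPM for B cell, 17.0 and 57.7 CPM for mast cell and 167 and 88.5 CPM for neutrophil markers, and their part in this result was not tested.

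Whether the stimuli add up on the log2 scale was tested by an interaction term, for which 4.62% of all genes were called and, of the 7 members, *Irf1* alone. Uncorrected for the ceiling, the effect of *E. coli* on *Irf1* was -0.76 when given alone and -0.05 on top of IFN-γ. The departure from the sum was 0.71 ± 0.141 (adjusted p = 0.0059). *Irf8* departed by 0.82 ± 0.415 (adjusted p = 0.331) and *Irf7* by 0.42 ± 0.192 (adjusted p = 0.264), neither of them called. Without *E. coli* library 3, the departure of *Irf8* was 1.38 and was called (adjusted p = 0.0319, range 0.0319 to 0.668). All of these comparisons share libraries, and their values stand side by side without being independent.

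IL-4, the cytokine used to model a type 2 environment, raised 3 of the 8 members tested in set 2: *Irf4*, *Irf1* and *Irf2*. *Irf4*, which takes part in the macrophage response to IL-4, was at 0.555, 0.663 and 1.51 CPM in unstimulated libraries d, e and f (2, 4 and 8 counts) and at 5.52, 7.14 and 5.96 CPM with IL-4 (29, 43 and 23 counts). Every IL-4 library lay above every unstimulated one, where the level was near the limit of 3 counts. The log2 fold change was 2.71 ± 0.457 (adjusted p = 0.00427). *Irf1* went from 265, 225 and 269 CPM to 505, 515 and 466 CPM, without overlap, a 1.96-fold rise (log2 fold change 0.97 ± 0.119, adjusted p = 0.000782). *Irf2* went from 294, 270.4 and 353 CPM to 504, 412 and 457 CPM. The groups did not overlap, though library f came near IL-4 library 2, and the log2 fold change was 0.58 ± 0.136 (adjusted p = 0.022). Of the 10556 genes tested in set 2, 5.97% were called higher and 4.35% lower, so that the share of members called higher lies above that of all genes; 0 members were called lower in edgeR and in DESeq2, and 4 were at an unadjusted p under 0.05. *Irf8* was at 36.7, 39.8 and 56.4 CPM without stimulus and at 24.7, 28.2 and 35.0 CPM with IL-4. The groups did not overlap, but the log2 fold change of -0.60 ± 0.205 was not called (adjusted p = 0.0937). *Irf3*, *Irf5*, *Irf7* and *Irf9* were at 43.4 ± 2.63, 74.6 ± 10.4, 616 ± 51.8 and 222 ± 5.20 CPM with IL-4, and for these 4 the libraries overlapped and no change was called.

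The B cell sum was 26.1, 24.7 and 45.1 CPM in libraries d to f and 65.8, 62.0 and 74.7 CPM with IL-4, with all 8 markers above 3 counts in some library and *Ighm* the most abundant. The dendritic cell sum was 6.94, 4.80 and 10.2 CPM and then 11.0, 18.4 and 19.2 CPM, with 5 of 7 markers above 3 counts, *Xcr1* leading and *Siglech* at 0 in every library of set 2. The plasma cell sum was 10.8, 12.6 and 14.7 CPM and then 7.99, 9.64 and 6.22 CPM, with 4 of 5 markers above 3 counts, *Sdc1* leading and *Tnfrsf17* at 0, but without *Sdc1* the means were 2.52 and 2.74 CPM. The neutrophil sum was 19.7, 20.9 and 23.6 CPM and then 41.7, 41.5 and 67.4 CPM, with 8 of 8 markers above 3 counts. *Cxcr2* led on the mean over set 2, with means of 3.76 and 32.1 CPM, while *S100a8* had means of 7.74 and 4.77 CPM. Without *Cxcr2* the means of the sum were 17.6 and 18.1 CPM. The mast cell sum was 8.33, 6.79 and 7.17 CPM and then 17.5, 8.14 and 20.7 CPM, with 5 of 6 above it and *Tpsb2* leading. The mean macrophage or monocyte sum without *Ly6c2* was 2646 CPM and then 2004 CPM, with *Marco* at 195 and 28.6 CPM and *Csf1r* at 418 and 261 CPM, each without overlap, as was *Irf8*. The part of these sums in the levels of *Irf4*, *Irf1*, *Irf2* and *Irf8* was not tested. *Gm17334*, a gene on the opposite strand whose exons overlap those of *Irf1*, went from 8.50 to 37.8 CPM with IL-4 and was at most 1.03 CPM in set 1, and its part in the level of *Irf1* was not tested. Whether counting followed the strand is not stated. Opposite-strand exons also overlap *Irf3* (*Bcl2l12*, at 4.76 CPM in libraries a to c), *Irf5* (*Tnpo3*, 67.7 CPM there, 74.1 with IFN-γ and 87.0 with both) and *Irf7* (*Phrf1*, 62.7 CPM there and 75.9 with *E. coli*, where *Irf7* was lower), and *Rnf31*, at 57.5 CPM there, overlaps *Irf9* on the same strand; their part was not tested either. Leaving out any 1 IL-4 library ended the call of *Irf2* (0.52, adjusted p = 0.124 without library 1; 0.64, 0.0565 without library 2; 0.57, 0.088 without library 3; range 0.00255 to 0.124). *Irf8* was called lower without unstimulated library e (-0.70, adjusted p = 0.0336) and with no filter on low counts (-0.63, 0.0214; range 0.0214 to 0.977), and *Irf5* with all 6 unstimulated libraries as 1 group (-0.36, 0.0462; range 0.0462 to 0.601).

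**Figure D2:**
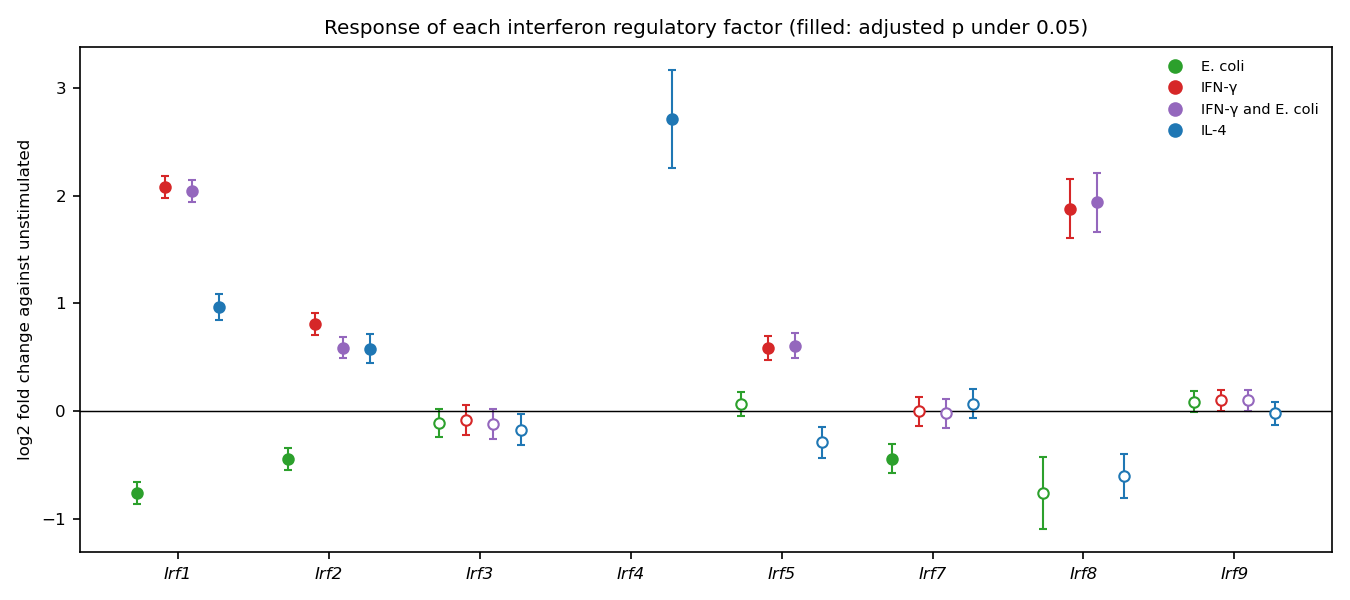
Log2 fold change ± SE (vertical axis) of each interferon regulatory factor for each stimulus against the 3 unstimulated libraries of its own set; filled points passed an adjusted p of 0.05 and open points did not. *Irf1* and *Irf2* are called under all 4 stimuli, *Irf1* at -0.76 for *E. coli*, 2.08 for IFN-γ, 2.04 for their combination and 0.97 for IL-4, and *Irf4* was tested only with IL-4.

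The response to IL-4 was then tested against each other response, each taken relative to its own unstimulated libraries, because a call under 1 stimulus and not another does not show a difference. Against the response to IFN-γ, 3 of 8 members differed in edgeR, where 27.8% of all genes did, a share near that of the members. *Irf1* differed by -1.14 ± 0.143 on the log2 scale (adjusted p = 3.31e-06), *Irf5* by -0.92 ± 0.169 (adjusted p = 0.000321) and *Irf8* by -2.52 ± 0.373 (adjusted p = 2.74e-05), all lower with IL-4. *Irf4* differed by 2.53 ± 1.13, which was not called (adjusted p = 0.101), so that its rise was not shown to belong to IL-4 alone. Against the response to both stimuli the same 3 members differed, by -1.12 ± 0.143 for *Irf1*, -0.96 ± 0.170 for *Irf5* and -2.60 ± 0.374 for *Irf8*, where 39.2% of all genes did, so that 3 of 8 is near the share of all genes. Against the response to *E. coli*, 2 of 8 members differed, *Irf1* by 1.72 ± 0.145 (adjusted p = 1.65e-08) and *Irf2* by 1.00 ± 0.161 (adjusted p = 6.88e-05), where 28.1% of all genes did, again near that share. In that comparison *Irf7* (0.50 ± 0.197, adjusted p = 0.0651) was called without unstimulated library a (0.58, 0.0449) or e (0.63, 0.0129), without *E. coli* library 3 (0.58, 0.0446), with at least 10 counts in every library (0.58, 0.0205) and after the correction for the ceiling (0.71, 0.0039; range 0.0039 to 0.183), and *Irf5* (-0.38 ± 0.169, adjusted p = 0.101) without IL-4 library 3 (-0.48, 0.0464; range 0.0464 to 0.317). These 3 comparisons share the 6 libraries of set 2, and the stimuli compared belong to different sets.

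Upstream of the family stand the interferon genes. None of 21 interferon genes of type I, II and III could be tested: in set 1 only 3 of them had any count, at most 4 (*Ifng*) in a library, and in set 2 only 4, at most 3 (*Ifnb1*), so that changes in them were not detectable at this depth. *Stat2*, the partner of IRF9, fell with *E. coli* by 0.95 on the log2 scale and rose with IFN-γ (0.38 ± 0.108), with both (0.48 ± 0.108) and with IL-4 (0.78 ± 0.115). Of 22 sensors, adaptors and kinases that activate IRF3, IRF5 or IRF7, 3 rose and 5 fell with *E. coli*, 3 and 4 with IFN-γ, 5 and 6 with both, and 2 and 0 with IL-4. These counts lie near the shares of all genes called higher and lower, 13.5% and 16.7% with *E. coli*, 15.6% and 16.0% with IFN-γ, 23.9% and 25.2% with both and 5.97% and 4.35% with IL-4, and so are no result about the list. *Sting1*, the adaptor of cytosolic DNA sensing, went from 60.1 ± 10.2 to 19.5 ± 4.15 CPM with *E. coli* (-1.63 ± 0.188). *Tlr4*, the receptor for lipopolysaccharide, rose with *E. coli* (0.75 ± 0.159), and *Tbk1*, a kinase of IRF3, rose with IFN-γ (0.50 ± 0.127). With IL-4 the rises were *Ifih1* (0.89 ± 0.148) and *Ddx58* (0.46 ± 0.111), both sensors of RNA.

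Other proteins bind DNA with the family or restrain it. Of 14 partners and cofactors, 4 rose and 4 fell with IFN-γ, 1 and 3 with *E. coli* and 5 and 4 with both, and 1 rose and 0 fell of 13 with IL-4, against the same shares of all genes, so that 10 of 14 were not called with *E. coli* and 12 of 13 not with IL-4 and nothing is read from these counts about the list. *Batf2*, a partner of IRF1, went from 4.22 ± 1.55 to 21.2 ± 2.62 CPM with IFN-γ (log2 fold change 2.24 ± 0.394). *Batf3*, a partner of IRF8 in dendritic cells, rose with IL-4 (1.18 ± 0.192) and fell with IFN-γ and *E. coli* together (-1.38 ± 0.237). *Spi1*, which encodes PU.1, the common partner of IRF4 and IRF8, was at 1007 ± 134 CPM in libraries a to c and was not called under any of the 4 stimuli. Of 8 negative regulators, 3 rose and 0 fell with IFN-γ, 3 and 2 with *E. coli*, 4 and 0 with both and 4 and 0 with IL-4, against the same shares of all genes, with medians on the log2 scale of 0.4, 0.25, 0.37 and 0.35 against -0.03, -0.02, -0.04 and 0.00 over all genes tested. *Socs1*, an inhibitor of Janus kinases, rose under all 4 stimuli, by 1.34 ± 0.124 on the log2 scale with IFN-γ, 0.77 ± 0.123 with *E. coli*, 1.30 ± 0.124 with both and 1.52 ± 0.127 with IL-4.

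Genes described elsewhere as targets of IRF1 moved with IFN-γ: 13 of 15 rose and 0 fell, against 15.6% and 16.0% of all genes, with a median log2 fold change of 1.15 against -0.03 over all genes tested. *Cxcl9*, a chemokine for T cells, went from 3.18 ± 2.25 to 345 ± 11.2 CPM (6.69 ± 0.303), *Nos2* from 43.0 ± 15.1 to 587 ± 49.3 CPM (3.76 ± 0.250) and *Cd274*, which encodes PD-L1, from 155 ± 41.9 to 1044 ± 28.2 CPM (2.75 ± 0.152). With both stimuli 15 of 15 rose, against 23.9% of all genes, with a median of 1.28 against -0.04. With *E. coli* alone 3 rose, near the 13.5% of all genes, and 8 fell, against 16.7%, with a median of -0.47 against -0.02. Those that rose were *Nos2* (1.66 ± 0.249), *Il27* (1.62 ± 0.221) and *Cd274* (1.04 ± 0.147), while *Psmb9*, a subunit of the immunoproteasome, went from 202 ± 14.9 to 80.2 ± 15.5 CPM (-1.34 ± 0.126). *Ciita*, the coactivator of MHC class II genes, fell from 3.55 ± 0.991 to 0.329 ± 0.570 CPM, under 3 counts in every *E. coli* library. With IL-4, 6 rose and 0 fell, against 5.97% and 4.35% of all genes, with a median of 0.36 against 0.00, among them *Psmb9* (0.97 ± 0.205) and *Nlrc5* (0.70 ± 0.130), the coactivator of MHC class I genes.

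Genes described as targets of the IRF9 complex, the antiviral genes of the type I interferon response, went down with *E. coli*: 9 of 12 fell and 0 rose, against 16.7% and 13.5% of all genes, with a median of -0.69 against -0.02 over all genes. *Ifit2* went from 162 ± 39.1 to 48.4 ± 13.7 CPM (log2 fold change -1.77 ± 0.187) and *Mx1* from 204 ± 30.2 to 65.1 ± 17.3 CPM (-1.65 ± 0.204). With IFN-γ 2 rose, near the 15.6% of all genes, and 4 fell, against 16.0%, with a median of -0.05 against -0.03: *Ifit2* rose (0.98 ± 0.168) and *Oas1a* fell (-0.80 ± 0.166). With both stimuli 3 rose, near the 23.9% of all genes, and 5 fell, against 25.2%, with a median of -0.14 against -0.04. With IL-4 5 rose and 0 fell, against 5.97% and 4.35%, with a median of 0.36 against 0.00, led by *Eif2ak2* (1.08 ± 0.244) and *Isg15* (0.78 ± 0.140). *Irf9* itself had no call in any of these comparisons.

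**Figure D3:**
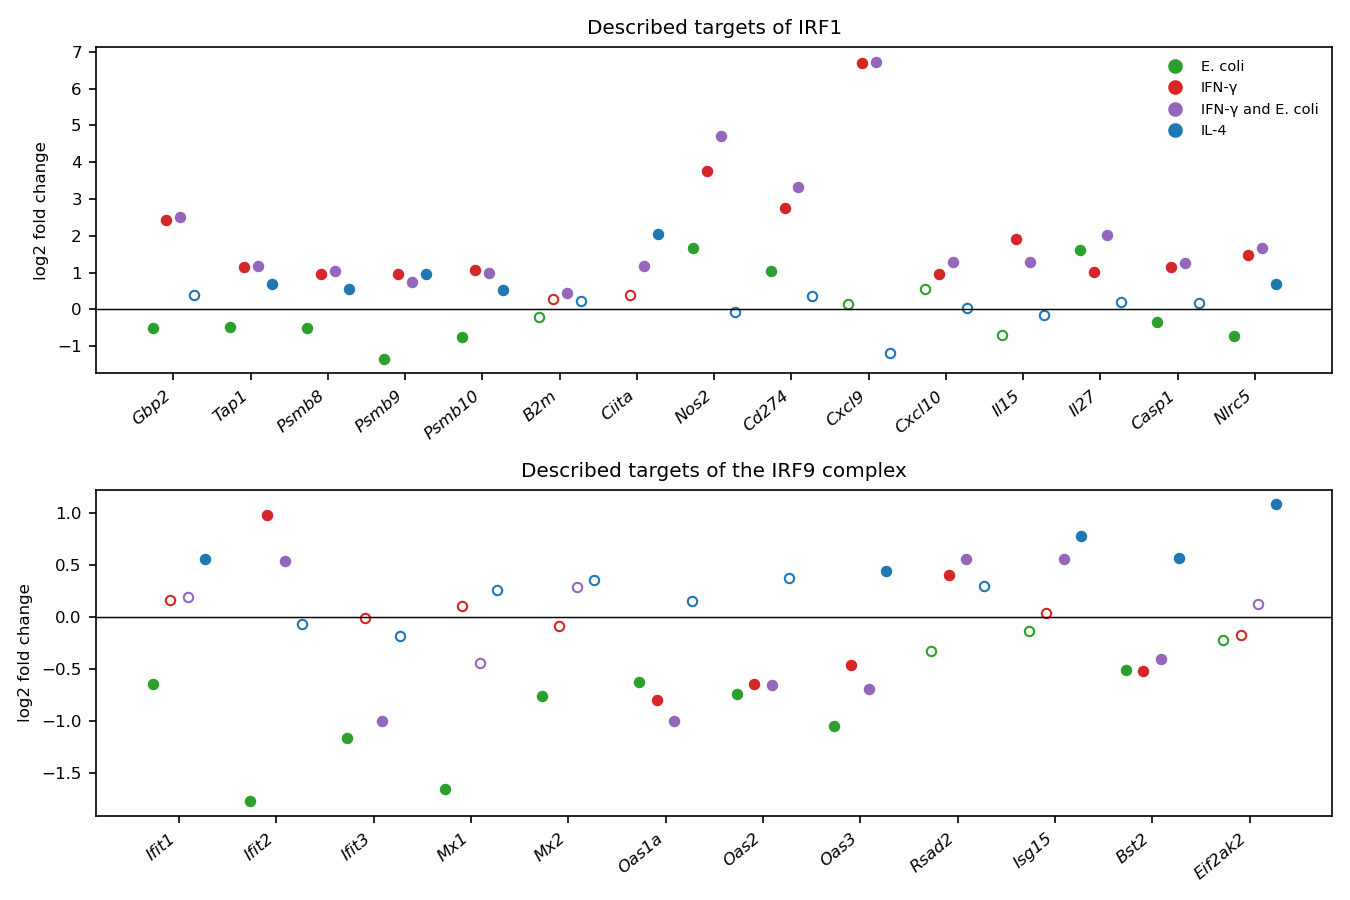
Log2 fold change (vertical axis) of genes described as targets of IRF1 and of the IRF9 complex, for each stimulus relative to the unstimulated group of its own set. Filled points passed an adjusted p of 0.05, and *Ciita* with *E. coli*, at under 3 counts in each library, is not drawn. Of the IRF1 targets 13 of 15 rose with IFN-γ, where 15.6% of all genes did, and of the IRF9 targets 9 of 12 fell with *E. coli*, where 16.7% of all genes did.

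The lists for the other members are short. Of the described IRF5 targets, *Il6* rose from 19.9 ± 4.38 CPM to 153 ± 40.4 with *E. coli*, to 43.8 ± 3.92 with IFN-γ and to 491 ± 70.3 under their combination, and from 16.5 ± 3.01 to 77.3 ± 5.89 CPM with IL-4. *Tnf* rose with *E. coli* (2.51 ± 0.199) and fell with IL-4 (-1.12 ± 0.297), so that of 3 targets tested in set 1 the number called higher was 2 for *E. coli*, 2 for IFN-γ and 3 for their combination, and of 2 tested in set 2 1 rose and 1 fell, too few to set against the shares of all genes. *Il12b*, listed for both IRF5 and IRF8, went from 0.275 ± 0.477 CPM to 7.96 ± 7.81 with IFN-γ and 18.2 ± 6.32 with both. Of the described IRF4 targets, *Prdm1* rose with *E. coli* (1.38 ± 0.354) and *Chil3* with IFN-γ (0.73 ± 0.227). *Prdm1* and *Chil3* were also called higher with the combination, in the set where *Irf4* was too low to be tested. With IL-4, *Ccl17*, a chemokine for T helper cells, rose from 0.384 ± 0.110 to 6.20 ± 2.96 CPM and *Chil3* from 1220.2 ± 252 to 2196 ± 267 CPM, and *Retnla* fell from 26230.0 ± 4764 to 17684 ± 1215 CPM. Of 7 described IRF8 targets, 4 rose and 2 fell with IFN-γ, 2 and 2 with *E. coli* and 5 and 1 with both, and 0 of 6 were called with IL-4, against 15.6% and 16.0%, 13.5% and 16.7%, 23.9% and 25.2%, and 5.97% and 4.35% of all genes. The medians of the IRF8 targets were 0.33, -0.06, 0.37 and -0.04 in the same order, against -0.03, -0.02, -0.04 and 0.00 over all genes, and with so few genes nothing particular to the list is read from them. *Klf4*, a factor of monocyte differentiation, went from 4.16 ± 0.885 to 31.3 ± 4.94 CPM with IFN-γ (2.94 ± 0.303).

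Likeness of pattern was described over the 12 libraries of set 1 by the Pearson correlation of log2 CPM among 7922 genes with a mean of at least 10 CPM. These libraries fall into 4 groups, so the coefficients mostly follow the group means. *Irf1* and *Irf2* had a coefficient of 0.98 with each other, *Irf1* and *Irf8* of 0.95, and *Irf1* and *Irf5* of 0.91, while *Irf1* and *Irf3* had -0.08. The genes most like *Irf1* were *Il18bp* (0.996), *Dcaf12* (0.995) and *Tap1* (0.994), and those most like *Irf8* were *AW112010* (0.992), *Hk3* (0.981) and *Scpep1* (0.979). *Irf2* was most like *Irgm2* (0.989), *Gng2* (0.986) and *Gbp8* (0.986), and *Irf5* most like *Pomp* (0.953), *Nxn* (0.950) and *Rmdn3* (0.948). *Irf7* was most like *Dazap2* (0.941), *Zfp36* (0.934) and *Prr13* (0.930). For *Irf9* (*Edc4*, 0.904, first) and *Irf3* (*Klhl5*, 0.838, first) the coefficients were lower.

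The 250 bases before each listed start of each gene were read from RefSeq on GRCm38.p6, where all 8 members were found, and searched for TTCNNNGAA, the letters of the gamma-activated site found in many genes that answer to IFN-γ, which reads the same on both strands. Of 32851 promoters of this length 7.02% held it. It was found before *Irf1*, *Irf2* and *Irf8*, for *Irf1* and *Irf8* before the first of 2 starts listed and not before the other. These 3 members rose with IFN-γ. It was not found before *Irf5*, which also rose, nor before *Irf3*, *Irf4*, *Irf7* or *Irf9*. The stretches before the 3 genes are shown because they hold these letters; they are given on the forward strand outside annotated exons, with the TTCNNNGAA letters in capitals. For *Irf1* the stretch is chr11:53769764-53770013, for *Irf8* chr8:120736108-120736357 and for *Irf2*, cut at annotated exons on either side, chr8:46739516-46739731.
Irf1: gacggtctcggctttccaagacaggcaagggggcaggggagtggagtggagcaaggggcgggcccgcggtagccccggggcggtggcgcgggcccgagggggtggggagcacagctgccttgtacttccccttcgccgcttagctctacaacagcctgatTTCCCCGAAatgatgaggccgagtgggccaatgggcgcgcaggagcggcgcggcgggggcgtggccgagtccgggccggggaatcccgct
Irf8: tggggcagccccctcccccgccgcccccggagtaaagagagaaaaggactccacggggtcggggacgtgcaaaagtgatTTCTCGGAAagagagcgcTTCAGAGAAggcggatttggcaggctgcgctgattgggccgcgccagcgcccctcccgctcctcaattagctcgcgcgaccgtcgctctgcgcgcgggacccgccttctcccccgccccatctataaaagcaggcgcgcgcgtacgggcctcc
Irf2: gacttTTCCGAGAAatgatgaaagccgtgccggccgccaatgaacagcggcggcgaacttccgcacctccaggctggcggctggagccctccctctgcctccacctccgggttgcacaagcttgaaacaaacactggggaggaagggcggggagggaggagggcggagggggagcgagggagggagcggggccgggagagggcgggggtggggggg
Counted from the RefSeq start, the match lies 90 to 82 bases before *Irf1*, at 171 to 163 and 153 to 145 bases before *Irf8*, and at 224 to 216 bases before *Irf2*, whose RefSeq start follows position 46739744 and lies within the gene as placed above. A match of letters is a description of the sequence and not a measured binding site.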

How the data were processed

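RNA of 18 libraries was measured, and the authors deposited counts per Ensembl gene, made per the labels by CEL-Seq2 sequencing, TopHat2 2.1.0 on GRCm38 and HTSeq 0.6.1, without normalization. Whether identifiers were collapsed is not stated, and the labels also name STAR 2.7.2a, fastp 0.20.1 and a second sequencing experiment without saying for which libraries. Entries that are no gene (21.1% to 39.4% of counts in set 1) were left out. Each set was fitted with edgeR 4.0.16 in R 4.3.3 (TMM, filterByExpr, quasi-likelihood, Benjamini-Hochberg over all genes tested, adjusted p under 0.05), and standard errors are approximate, from the log2 fold change and its F statistic. For the tests of IL-4 against other responses, 10671 genes of all 18 libraries were fitted together. Alternatives were DESeq2 1.42.0, its size factors, other filters, the compared groups alone, each library left out, all unstimulated libraries as 1 group, the replicate number as a block and, chosen after seeing the data, correction for the identifier ceiling and the stimulated libraries without a block. Besides the 8 members, genes named are, per list and comparison, up to 3 rises and 2 falls of largest size, others being named after their values were seen, and the 3 genes most correlated with each member. Members and lists were chosen with earlier results of these data known. The fits were checked on simulated data. A few genes of the lists are not reported here.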

Additional observations from a re-analysis of the deposited data

Results flagged for a closer look

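The effect of *E. coli* on *Irf1* differed between cells with and without IFN-γ, by a test of that difference: the joint effect departed from the sum of the log2 effects by 0.71 ± 0.141 (SE, adjusted p = 0.0059, edgeR, 3 libraries in each of 4 groups). Counts of *Irf1* in the 6 libraries with IFN-γ, 1779 to 2522, lie under the ceiling at 4096, and corrected for it the departure was 0.67 (adjusted p = 0.00735, range over the alternatives 5.67e-06 to 0.0322).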

How the results depend on the processing

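No called value of a member turned its direction under any alternative, and 22 of 28 called values kept their call under every alternative in which they could be tested. With 1 library left out in turn, 9 calls of a member in a comparison were lost and 7 gained, counted over all libraries, and under the other alternatives 4 were lost and 7 gained. Taking all 6 unstimulated libraries as 1 group left 2 members called with IFN-γ and *E. coli*, in place of 4, and 1662 genes called with IL-4, in place of 1089; with no filter 1634 genes were called with IL-4. The cause was not tested. With 1 library left out, fewer libraries being fitted, genes called with IL-4 ranged from 483 to 1394, for both stimuli against IFN-γ from 740 to 1122 (1209 with all libraries) and for the interaction from 266 to 562 (457 with all), and members called for the interaction from 1 to 2. With the replicate number as a block, which libraries share only as a number in the labels, 740 genes were higher and 690 lower for both stimuli against IFN-γ, with 0 of 7 members called, and 1836 higher and 1611 lower against *E. coli*, with 5 members called. The interaction could not be blocked, since unstimulated libraries carry letters. Scaling moved the median of all genes by at most 0.0286 on the log2 scale. With at least 10 counts in every library *Irf4* could not be tested. Depth limits *Irf4* in set 1 and the interferon genes.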
